A study of Homo sapiens with 13 samples.

Results

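Baseline translational efficiency (TE) was measured in MDA-MB-231 cells that had received only the vehicle DMSO. TE was taken as the density of ribosome footprints (RF) on a gene divided by the density of its mRNA, both in RPKM, reads scaled to the length of sequence and to the size of the library. A gene was included when it had at least 100 reads in the RF library of passage 3 and at least 100 in the mRNA library and had an RPKM in both, which gave 9657 of 24,875 gene symbols. The TE of passage 3 was then compared with that from a second RF library, of passage 4.

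MDA-MB-231 is an established human breast cancer line, and the study profiled it to follow translation under 2 drugs, Silvestrol and INK128. The 3 libraries used here were RF from DMSO-treated cells after 2 h at passages 3 and 4 and poly(A)-selected mRNA from passage 3. All 3 are from the same unmodified line, and the RF libraries were made with cycloheximide in the lysis step to hold ribosomes in place. The title of the mRNA library names DMSO while another of its labels calls it untreated, and it is treated here as the DMSO control. Other control libraries were used only for comparison: RF of untreated cells, RF after 1 h of DMSO, and the DMSO arm of the INK128 experiment, which had RF and total RNA instead of poly(A)-selected mRNA.

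Ribosomes protect a short stretch of the mRNA from nuclease, so the number of protected fragments on a coding sequence reports how many ribosomes occupy it, and division by the mRNA level gives occupancy per message. Initiation usually sets this value. The cap-binding complex and the helicase eIF4A prepare the 5′ UTR, the ribosome scans to a start codon, and upstream start codons can divert it. The ratio measures occupancy and not protein output directly, because slowed elongation also raises it.

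Counted reads were 26,176,257 in the passage 3 RF library, 6,446,356 in the passage 4 RF library and 50,315,607 in the mRNA library. Vimentin, a mesenchymal filament protein, had 6454 and 4789 RF RPKM in passages 3 and 4 and 1461 mRNA RPKM. CAV1, AXL, CD44, MSN and FN1 were also present, whereas SPARC had only 98 mRNA reads. The estrogen receptor gene ESR1 had 0 reads in all 3 libraries, PGR had 2 mRNA reads and CDH1 had 26, while EPCAM, GATA3 and ERBB2 had 447, 524 and 7523. The blood and liver genes CD3E and ALB had 0 reads in all 3 libraries and PTPRC had 12 mRNA reads, while the endothelial gene PECAM1 had 73.

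TE varied widely before any drug. The median TE was 1.91 in passage 3 and 1.88 in passage 4, and the genes at percentiles 5 and 95 were 24.3-fold apart in passage 3. All further TE values are log2 TE minus the median of the members in the same passage, so that 1 stands for a 2-fold higher TE than the typical gene. The SD of these values was 1.39 in passage 3 and 1.35 in passage 4. mRNA and RF levels in passage 3 correlated across the 9657 genes with a Spearman rho of 0.748.

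The passages gave similar TE values. Across 9614 genes with a value in both, rho was 0.932 (Pearson r = 0.926), and the SD of the difference between passages was 0.53. Both TE values share the same mRNA library, which raises this correlation, and genes are not independent replicates. RF RPKM alone correlated with rho 0.970. Another 43 genes, including some with up to 14,933 RF reads in passage 3, were listed with 0 reads in passage 4 and were left out of every step that uses passage 4.

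**Figure D1:**
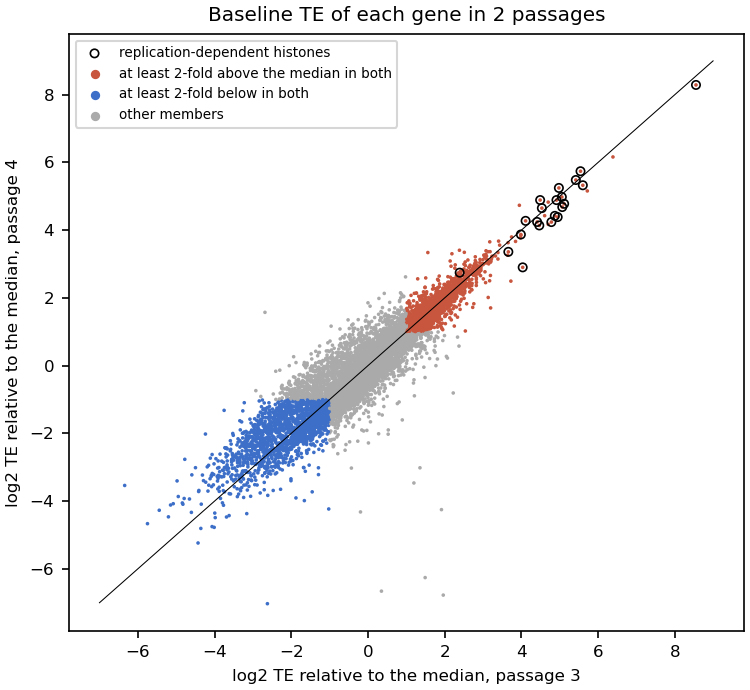
Log2 TE relative to the median in passage 3 (horizontal) and passage 4 (vertical) for 9614 genes, each a point, with the line of equality. Red and blue mark the 1780 and 1821 genes at least 2-fold above or below the median in both passages, and circles mark the replication-dependent histones, which all lie above 2 on both axes.

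In both passages, 1780 genes lay at least 2-fold above the median (18.5% of 9614) and 1821 at least 2-fold below it (18.9%). The edgeR quasi-likelihood test of RF against mRNA reads, which allows for the counted length, called 1894 genes higher (19.7%) and 1873 lower (19.5%) at an adjusted p of 0.05. It has 2 RF libraries against 1 mRNA library, and the lone mRNA library is assumed to vary like the RF libraries. The fold rule and the test shared 1681 of the higher and 1670 of the lower genes. No replicate of the mRNA library entered, so an error in that library would move TE in both passages alike.

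Passage 4 differed from passage 3 for some classes of genes. The 207 membrane and secreted members were higher in passage 4 by a median of 0.71 on the log2 scale, against −0.01 over all members. The median gain was 0.97 for integrins, 0.96 for cadherins and tetraspanins, 0.95 for the signal peptidase, translocon and oligosaccharyltransferase, and 0.91 for genes of the unfolded protein response. Immediate early and AP-1 genes were lower in passage 4, with a median difference of −0.72. RF of untreated cells and of 1 h DMSO are also from passage 3. The integrin median was −2.21 and −2.24 in these, against −2.52 in passage 3 and −1.76 in passage 4. The immediate early median was 0.04 and 0.48 in these, against 0.50 and −0.23. Passage 4 has a single control RF library, so passage, library and depth cannot be told apart, and both values are given for every gene below.

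Genes were grouped into 74 classes by symbol, which held 2386 of the members, and 72 classes had at least 8. Each count of members higher or lower by the edgeR test below is to be read against 19.7% higher and 19.5% lower over all genes tested. The class median was at least 0.5 above the median of all members in 20 classes and at least 0.5 below in 16. In 16 of the 20 and 12 of the 16, the passage 4 median was also past 0.5. Of the low classes, the signal peptidase, translocon and oligosaccharyltransferase went from −0.63 to 0.29, TGF-beta ligands, receptors and SMADs from −0.58 to 0.14, and cholesterol synthesis enzymes from −1.23 to −0.07. By broad area, cell cycle genes had the highest median (0.70 in passage 3 and 0.61 in passage 4, 171 genes), followed by genes of RNA processing (0.64 and 0.54, 274 genes) and mitochondria (0.36 and 0.36, 210 genes). Membrane and secreted proteins had the lowest (−1.74 and −1.03, 207 genes), followed by stress genes (−1.06 and −0.76, 52 genes). The order was another in the INK128 experiment, with folding at 0.85, mitochondria at 0.70, translation at 0.69, RNA processing at 0.51 and the cell cycle at 0.41. Membrane and secreted proteins lay at −0.24 there and stress genes at −0.12. Transcription (−0.42), signalling (−0.36) and cell death (−0.26) had lower medians than both in that experiment. The 7271 genes in no class had a median of −0.03 in each passage.

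**Figure D2:**
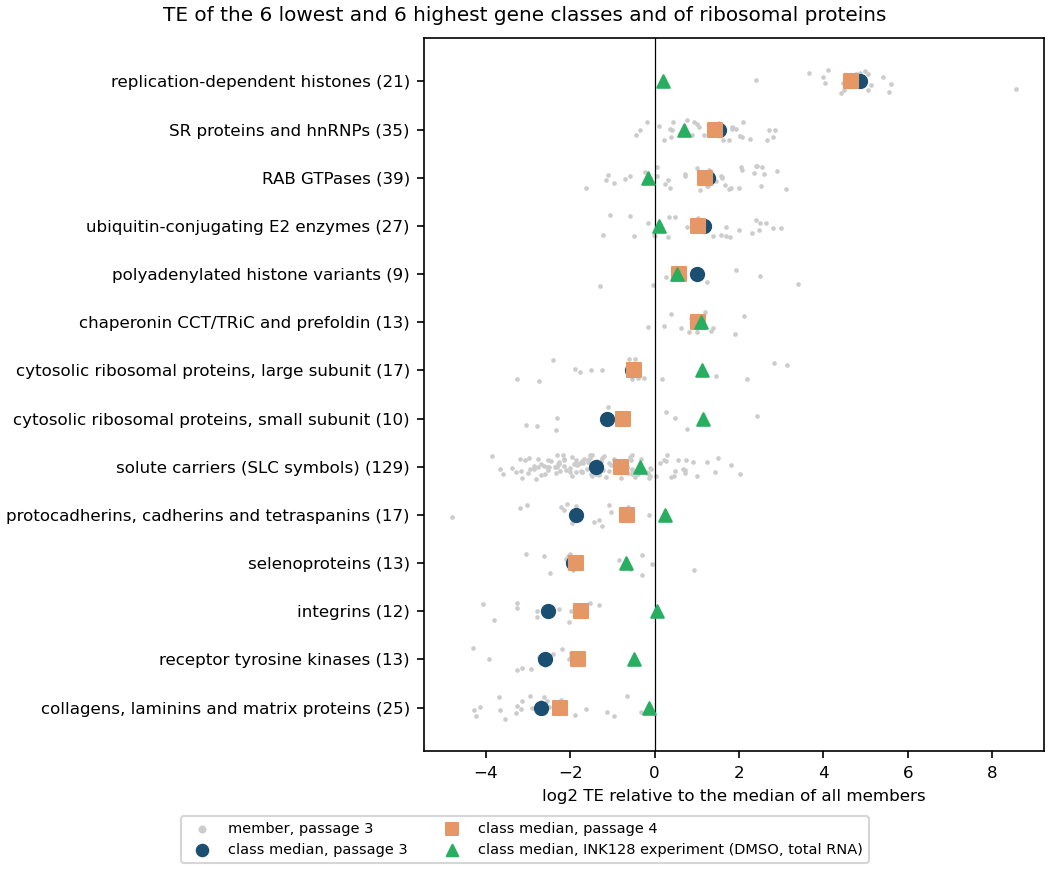
Log2 TE relative to the median of all members for the 6 lowest and 6 highest classes and for ribosomal proteins, with the number of members in brackets. Grey points are members in passage 3, and circles, squares and triangles are the class medians in passage 3, passage 4 and the DMSO arm of the INK128 experiment. The histones lie at 4.87 and 4.65 in the passages and at 0.21 in the INK128 experiment.

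The replication-dependent histones had the highest TE of any class. These genes supply the core and linker histones that package new DNA in S phase, and their mRNAs end in a conserved stem-loop instead of a poly(A) tail. The stem-loop is shown because this mRNA library was selected on poly(A). The letters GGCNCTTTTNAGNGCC were searched in the first 150 bases of the 3′ UTR, read on the transcript strand, in GENCODE version 44 lifted to GRCh37. They were present in 20 of the 21 histone members, in 21 of 9583 members with a 3′ UTR (0.219%) and in 65 of 19,256 genes (0.338%), and in 0 genes on the opposite strand. The sequences below are from histone genes of a single exon, and capitals mark the match.
HIST1H3H (histone H3), chr6:27778289-27778314, plus strand: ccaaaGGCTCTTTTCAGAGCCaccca
HIST1H2AB (histone H2A), chr6:26033321-26033346, minus strand: gcaaaGGCTCTTTTCAGAGCCaccta
HIST1H3C (histone H3), chr6:26046072-26046097, plus strand: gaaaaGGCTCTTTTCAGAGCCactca
HIST1H2AC (histone H2A), chr6:26124892-26124917, plus strand: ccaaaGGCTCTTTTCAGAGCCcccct
HIST1H1C (linker histone H1), chr6:26055968-26055992, minus strand: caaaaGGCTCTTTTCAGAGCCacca
HIST1H4A (histone H4), chr6:26022253-26022278, plus strand: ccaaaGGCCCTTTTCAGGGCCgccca
The member without these letters in the window was HIST1H2AK. The match outside the replication-dependent list was H2AFX, which was listed with the polyadenylated variants and had a log2 TE of 1.25 and 0.30.

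All 21 histone members of 67 in the table with an RPKM in both libraries of passage 3 were higher by the fold rule in both passages and by the edgeR test, against 18.5% and 19.7% of all genes tested. Another 3 histone genes met the limit of 100 reads but had no RF RPKM in passage 3 and were left out. They were HIST1H2AG with 170 RF reads in passage 3 and 860 mRNA reads, HIST1H2BJ with 997 and 852, and HIST1H2BN with 113 and 249, fewer RF reads per mRNA read than any of the 21 members. The log2 TE of the members ran from 2.39 to 8.55 in passage 3 (median 4.87) and from 2.75 to 8.29 in passage 4 (median 4.65). RF levels were high, with a median of 2271 RPKM in passage 3 and 1900 in passage 4, against 24.5 and 25.0 over all members. Their mRNA level had a median of 53.9 RPKM, against 13.6 over all members. In the INK128 experiment, where the RNA was not selected on poly(A), RF over total RNA for the same 21 genes had a median of 16.6, against 14.4 over 9323 members, and their log2 TE ran from −0.14 to 1.01 with a median of 0.21. That experiment also differs in its processing and unit, and the part of RNA selection in the histone values was not tested.

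**Figure D3:**
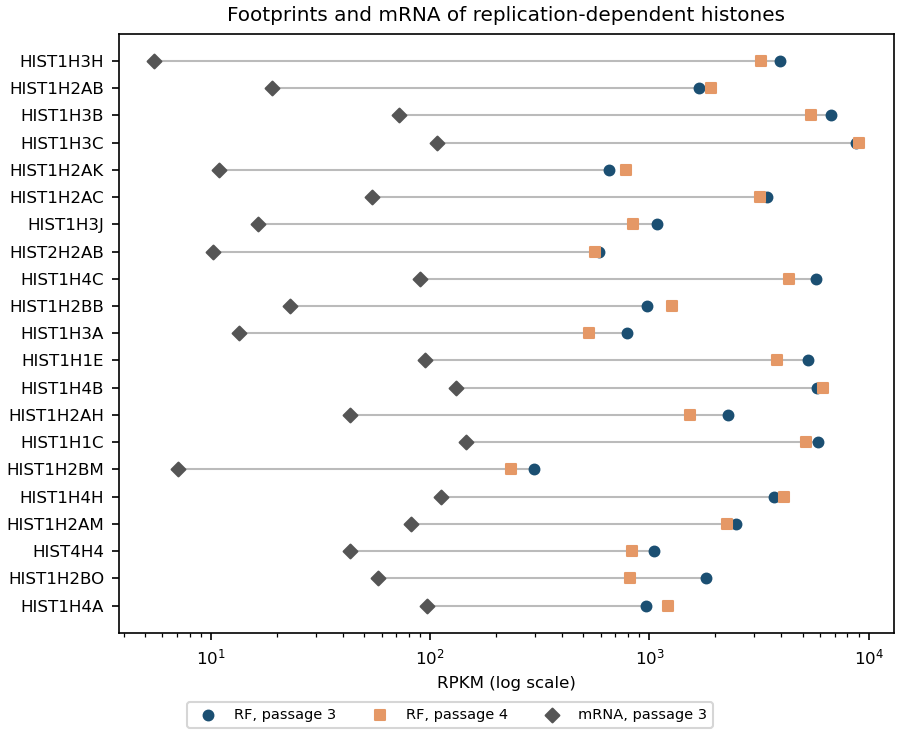
RPKM on a log axis for the 21 replication-dependent histone members, one gene a line, ordered by mean TE. Circles and squares are RF in passages 3 and 4 and diamonds are mRNA. RF lies above mRNA for every gene in both passages.

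HIST1H3C, a histone H3 gene, had 8746 and 8993 RF RPKM in passages 3 and 4 and 107 mRNA RPKM, a log2 TE of 5.42 and 5.48 (edgeR log2 5.43, SE 0.26, adjusted p = 0.0177). HIST1H2AB had 1680 and 1900 RF RPKM against 18.9 mRNA RPKM, with a log2 TE of 5.54 and 5.74. HIST1H3B (5.60 and 5.33), HIST1H2AC (5.06 and 4.98), HIST1H2AK (4.98 and 5.25), HIST2H2AB (4.92 and 4.89) and HIST1H3J (5.12 and 4.78) were also among the 10 genes ranked highest by the passage nearer the median, of those with at least 100 reads in all 3 libraries. HIST1H3H had 3934 and 3226 RF RPKM and 5.48 mRNA RPKM, a log2 TE of 8.55 and 8.29, the largest value in both passages. Its mRNA reads were divided by a counted length of 1829 bases although its coding sequence has 408, and a longer counted length gives a lower RPKM for the same reads. The smallest value was that of HIST1H4A, 2.39 and 2.75. Only 21.5% of the coding sequence of the median histone was counted. The copies are near-identical and the RPKM leave out positions with non-unique reads, so values for single histone genes are uncertain.

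The other 2 of the 10 highest were GTF2H5 and UQCRB. GTF2H5, a subunit of the repair and transcription factor TFIIH, had 390 and 328 RF RPKM and 2.43 mRNA RPKM, with a log2 TE of 6.39 and 6.16. UQCRB, a subunit of respiratory complex III, had 549 and 367 RF RPKM and 5.45 mRNA RPKM, with a log2 TE of 5.72 and 5.16. Both are short coding sequences on a long transcript and were counted only in part. GTF2H5 had 91.6 of 213 coding bases counted (43.0%) and 7457 counted transcript bases. UQCRB had 65.9 of 333 coding bases counted (19.8%) and 4102 counted transcript bases. By reads, GTF2H5 had 1222 RF in passage 3 and 1121 mRNA, and UQCRB had 1239 and 1382. In the INK128 experiment the log2 TE was 0.57 for GTF2H5 and 2.41 for UQCRB.

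The polyadenylated histone variants, most of which are made also outside S phase, had a smaller median of 1.01 in passage 3 and 0.57 in passage 4 (9 members), and 3 were higher by the edgeR test, against 19.7% over all genes tested. As a ratio of read counts without the counted length, this median was −0.72. H3F3B, the gene for the replacement histone H3.3, had 917 and 764 RF RPKM and 45.8 mRNA RPKM, a log2 TE of 3.39 and 3.15. Only 8.83% of its coding sequence was counted, with 1131 RF reads in passage 3 and 4093 mRNA reads. In the INK128 experiment H3F3B lay at 0.63. H2AFJ had 2.49 and 2.28, with 907 RF reads in passage 3 and 3375 mRNA reads. Its counted transcript length was 3613 bases, 583% of the annotated one, which lowers its mRNA RPKM. H1FX lay near the median, at −0.04 and −0.43. H2AFZ had 101 and 316 RF RPKM against 129 mRNA RPKM, on opposite sides of the median at −1.28 and 0.38, with 9.92% of its coding sequence counted.

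RAB GTPases, the switches that give vesicles their identity and destination, had a median of 1.28 in passage 3 and 1.19 in passage 4. By the edgeR test 23 of 39 were higher and 2 were lower. RAB1A, which acts between the ER and the Golgi, had 403 and 401 RF RPKM and 24.5 mRNA RPKM, a log2 TE of 3.11 and 3.12 (SE 0.24, edgeR adjusted p = 0.0177). RAB11A, of recycling endosomes, had 410 and 366 RF RPKM and 28.6 mRNA RPKM (2.91 and 2.77). The close paralog RAB1B was at the other end of the class, with 128 and 160 RF RPKM and 208 mRNA RPKM, a log2 TE of −1.63 and −1.29 (edgeR adjusted p = 0.0246), with 20.5% of its coding sequence counted. RAB40C had −1.11 and −1.76 (edgeR adjusted p = 0.0523). In the INK128 experiment the class median was −0.15, and as a ratio of read counts without the counted length it was 0.31.

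The SR proteins and hnRNPs, which bind pre-mRNA and guide splicing, had a median of 1.51 and 1.42, and 22 of 35 were higher and 0 lower by the edgeR test. SFRS1, the splicing factor SRSF1, had 559 and 569 RF RPKM and 40.7 mRNA RPKM (2.85 and 2.90, edgeR adjusted p = 0.0177). HNRNPA2B1 had 1824 and 2215 RF RPKM and 151 mRNA RPKM (2.66 and 2.97), and TRA2B, a splicing activator, reached 2.71 in each passage. The related SFRS7 (2.06 and 1.96) and SFRS5 (1.92 and 1.81) were also higher. SFRS3 had 159 and 537 RF RPKM and did not pass (1.56 and 3.34, edgeR adjusted p = 0.0846), with 15.9% of its coding sequence counted. HNRNPL (−0.45 and −0.53) and RALY (−0.34 and −0.54) were the lowest, and neither passed the test. The INK128 experiment gave this class a median of 0.69, and the mRNA library of Silvestrol-treated cells as denominator 0.88.

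The E2 enzymes, which carry activated ubiquitin to its ligases, had a median of 1.18 and 1.03, with 16 of 27 higher and 1 lower by the edgeR test. It was 0.11 in the INK128 experiment and 0.40 as a ratio of read counts without the counted length. UBE2B, which acts with RAD18 in DNA damage tolerance, had 287 and 279 RF RPKM and 18.7 mRNA RPKM (3.00 and 2.98). UBE2K had 313 and 327 RF RPKM and 23.3 mRNA RPKM (2.81 and 2.89). UBE2F, which carries NEDD8, was lower (−1.07 and −1.14, edgeR adjusted p = 0.0467), and UBE2M, the other NEDD8 carrier, had −0.59 and −1.51 (edgeR adjusted p = 0.150).

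The chaperonin CCT and prefoldin, which fold actin and tubulin, had a median of 0.99 and 1.03, with 7 of 13 higher and 0 lower by the edgeR test, and 1.09 in the INK128 experiment. With TE centred within 10 equal groups of genes by coding GC, the median was 0.14. VBP1, a prefoldin subunit, had 222 and 215 RF RPKM and 26.8 mRNA RPKM (2.12 and 2.09). CCT5 had 560 and 462 RF RPKM and 79.0 mRNA RPKM (1.89 and 1.64). CCT7, of the same ring, had 634 and 546 RF RPKM and 284 mRNA RPKM and lay at 0.22 and 0.03. The counted length differed between these subunits, with 27.8% of the coding sequence counted for CCT5 and 51.7% for CCT7, and by reads alone CCT5 had 8662 RF and 11,022 mRNA reads and CCT7 18,265 and 20,008, so that the order turned. PFDN5 lay at −0.16 and −0.31.

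At the low end, the collagens, laminins and matrix proteins had a median of −2.69 in passage 3 and −2.25 in passage 4. By the edgeR test 22 of 25 were lower and 0 were higher. LAMA5, a basement membrane laminin chain, had 2.66 and 4.86 RF RPKM and 27.2 mRNA RPKM (−4.29 and −3.40, SE 0.43, edgeR adjusted p = 0.0177). COL7A1, which forms anchoring fibrils, had 0.358 and 0.542 RF RPKM and 3.33 mRNA RPKM (−4.15 and −3.53). Fibronectin, FN1, had 18.4 and 33.0 RF RPKM and 87.1 mRNA RPKM (−3.17 and −2.31). The 2 highest members were THBS1, a secreted adhesion protein, with 251 and 403 RF RPKM and 208 mRNA RPKM (−0.67 and 0.04), and COL1A1 with 1.72 and 1.26 RF RPKM and 1.13 mRNA RPKM (−0.32 and −0.75), and neither passed the test. In the INK128 experiment the class median was −0.14.

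The receptor tyrosine kinases had a median of −2.60 and −1.82, with 11 of 13 lower and 0 higher by the edgeR test, and −0.48 in the INK128 experiment. ERBB2, the receptor HER2, had 3.27 and 3.90 RF RPKM and 25.8 mRNA RPKM (−3.91 and −3.64, SE 0.26, edgeR adjusted p = 0.0177). EPHB4 had 2.54 and 5.31 RF RPKM and 26.5 mRNA RPKM (−4.32 and −3.23). EGFR, the receptor of epidermal growth factor, had 18.4 and 27.4 RF RPKM and 32.2 mRNA RPKM (−1.74 and −1.15, edgeR adjusted p = 0.0348). ROR1 had −2.03 and −0.77 and did not pass (edgeR adjusted p = 0.144). AXL, an abundant receptor here with 109 and 162 RF RPKM and 303 mRNA RPKM, was also lower (−2.41 and −1.82).

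The integrins, which bind the matrix, had a median of −2.52 and −1.76, with 8 of 12 lower and 0 higher by the edgeR test. ITGB5 had 12.4 and 33.0 RF RPKM and 108 mRNA RPKM (−4.06 and −2.62), and ITGB4, of hemidesmosomes, had 6.84 and 13.4 RF RPKM and 50.3 mRNA RPKM (−3.81 and −2.82). The highest were ITGB3 (−1.31 and −1.09, edgeR adjusted p = 0.0447) and ITGAV (−1.53 and −0.42, edgeR adjusted p = 0.222). The INK128 experiment placed the class at 0.062, near the median of all members.

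Cadherins and tetraspanins had medians of −1.87 and −0.66, far apart in the passages, and 5 of 17 were lower and 0 higher by the edgeR test, against 19.5% lower over all genes tested. Their median was −1.0004 over the mRNA library of Silvestrol-treated cells and 0.24 in the INK128 experiment. TSPAN17 had 4.24 and 7.64 RF RPKM and 61.5 mRNA RPKM (−4.79 and −3.92), and CDH11 had 4.56 and 7.53 RF RPKM and 21.7 mRNA RPKM (−3.19 and −2.44). TSPAN14 (−0.13 and 0.40) and TSPAN6 (−0.64 and 0.51) crossed the median between passages. The 129 solute carriers had medians of −1.38 and −0.79, with 44 lower and 4 higher by the edgeR test, against 19.5% and 19.7% over all genes, and a median of −0.34 in the INK128 experiment. SLC25A23 (−3.37 and −3.79) and SLC38A10 (−3.87 and −3.13) were the lowest, while the mitochondrial folate carrier SLC25A32 (2.02 and 1.87) was higher, and the zinc transporter SLC30A7 had 1.51 and 2.59 (edgeR adjusted p = 0.0551).

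Selenoproteins read a UGA codon as selenocysteine with the help of a 3′ UTR element. Their median was −1.93 and −1.86, with 7 of 13 lower and 0 higher by the edgeR test. The median was −0.99 for the 11 genes with at least 100 reads in all 3 libraries, and −0.69 in the INK128 experiment. GPX4, which reduces lipid peroxides, had 162 and 124 RF RPKM and 518 mRNA RPKM (−2.61 and −2.97, SE 0.24, edgeR adjusted p = 0.0177), and SEPN1 had 7.55 and 10.7 RF RPKM and 32.8 mRNA RPKM (−3.05 and −2.53). SELS (−0.30 and 0.72) and SELI (0.93 and 2.04) were the highest, and neither passed the test.

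Among genes with at least 100 reads in all 3 libraries, the 10 ranked lowest by the passage nearer the median were LRP5, POMGNT1, FAM20C, GAS6, IRAK1, GUK1, MAP3K11, ERBB2, RPS6KB2 and HSPG2, and between 98.7% and 102% of the coding sequence of each was counted. LRP5, a Wnt coreceptor, had 4.38 and 7.17 RF RPKM and 65.0 mRNA RPKM (−4.82 and −4.09). GAS6, the ligand of AXL, had 18.0 and 30.5 RF RPKM and 270 mRNA RPKM (−4.84 and −4.05). IRAK1, a kinase of interleukin-1 receptor signalling, had 22.7 and 17.4 RF RPKM and 189 mRNA RPKM (−3.99 and −4.35), and it was also far below the median in the INK128 experiment, at −3.60. The others of the 10 lay nearer the median there than in either passage, from −2.45 for RPS6KB2 to −0.95 for HSPG2. LRP5 had −1.27 and GAS6 −1.14 in that experiment. GUK1, guanylate kinase, had 50.7 and 35.2 RF RPKM and 420 mRNA RPKM (−3.98 and −4.49). FAM20C (−5.08 and −4.08) and HSPG2 (−3.88 and −3.59) are secretory kinase and matrix proteoglycan genes, and POMGNT1 (−4.35 and −4.09) acts in the Golgi. The kinases MAP3K11 (−3.74 and −3.73) and RPS6KB2 (−3.62 and −3.78) differed least between passages. These genes were chosen for their TE, so their values are a description.

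Start codon regions of 3 genes of high TE and 5 of the lowest are shown to set their sequence contexts side by side. Each has 10 bases of 5′ UTR and 20 of coding sequence of GRCh37 from the transcript annotated in GENCODE. Capitals mark position −3, the ATG and position +4, counted from the A of the ATG as +1.
GTF2H5 (log2 TE 6.39 in passage 3, coding GC 43.2%), chr6:158591526-158591555, plus strand: ctgagaaAacATGGtcaacgtcttgaaagg
UBE2B (3.00, coding GC 41.9%), chr5:133707277-133707306, plus strand: gctgcggAgcATGTcgaccccggcccggag
UBE2K (2.81, coding GC 42.7%), chr4:39699938-39699967, plus strand: gggcggaGacATGGccaacatcgcggtgca
LRP5 (−4.82, coding GC 63.6%), chr11:68080173-68080202, plus strand: gccggacAacATGGaggcagcgccgcccgg
POMGNT1 (−4.35, coding GC 56.9%), chr1:46663474-46663503, minus strand: ccaatccGgtATGGacgactggaagcccag
FAM20C (−5.08, coding GC 65.2%), chr7:193190-193219, plus strand: ccgcgcgGccATGAagatgatgctggtgcg
GAS6 (−4.84, coding GC 63.5%), chr13:114566874-114566903, minus strand: ccggcccGccATGGccccttcgctctcgcc
IRAK1 (−3.99, coding GC 65.2%), chrX:153285244-153285273, minus strand: ggcggcaGccATGGccggggggccgggccc
All 8 have a purine at position −3. Over all members the share with a purine there was 87.0% in the quintile of genes with the lowest TE and 90.4% in the quintile with the highest, and the share with G at +4 was 53.6% and 54.4%.

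GC content of the coding sequence fell from each quintile of TE to the next higher one. Median GC of the coding sequence was 59.3%, 56.9%, 52.8%, 47.4% and 44.7% from the lowest to the highest quintile of TE. The correlation across genes had a rho of −0.510 in passage 3 (9589 genes), −0.632 in passage 4 (9546 genes) and −0.404 in the INK128 experiment (9304 genes). In the decile of genes with the lowest coding GC, 42.5% were at least 2-fold above the median in both passages and 2.29% at least 2-fold below. In the decile with the highest coding GC, these shares were 1.56% and 50.3%. RF and mRNA libraries can each favour fragments by base composition, and its part in this relation was not tested.

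At least 1 upstream ATG was present in 49.6% of genes in the lowest quintile of TE, and in 42.4%, 37.9%, 36.7% and 28.0% of the following quintiles. The rho of TE with the number of upstream ATGs was −0.158 in passage 3 and −0.159 in passage 4, and −0.297 in the INK128 experiment. With the longest 5′ UTR annotated for each gene these values were −0.062, −0.055 and −0.117. The rho with 5′ UTR length was −0.083 in passage 3, −0.081 in passage 4 and −0.276 in the INK128 experiment. Coding length had a rho of −0.216 and −0.220, with a median of 1695 bases in the lowest quintile and 1083 in the highest.

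The 3′ UTR went the other way in the 2 experiments. Its length correlated with TE with a rho of 0.252 in passage 3 and 0.305 in passage 4 but −0.261 in the INK128 experiment. mRNA RPKM divides by the whole transcript and RF RPKM by the coding sequence. The ratio of these counted lengths had a rho of 0.376 with TE in passage 3 and 0.412 in passage 4, and −0.057 in the INK128 experiment. In the decile of genes with the highest ratio the median TE was 1.22 in passage 3 and 1.28 in passage 4. These correlations are descriptions over genes that share libraries, and the counted length enters TE itself.

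**Figure D4:**
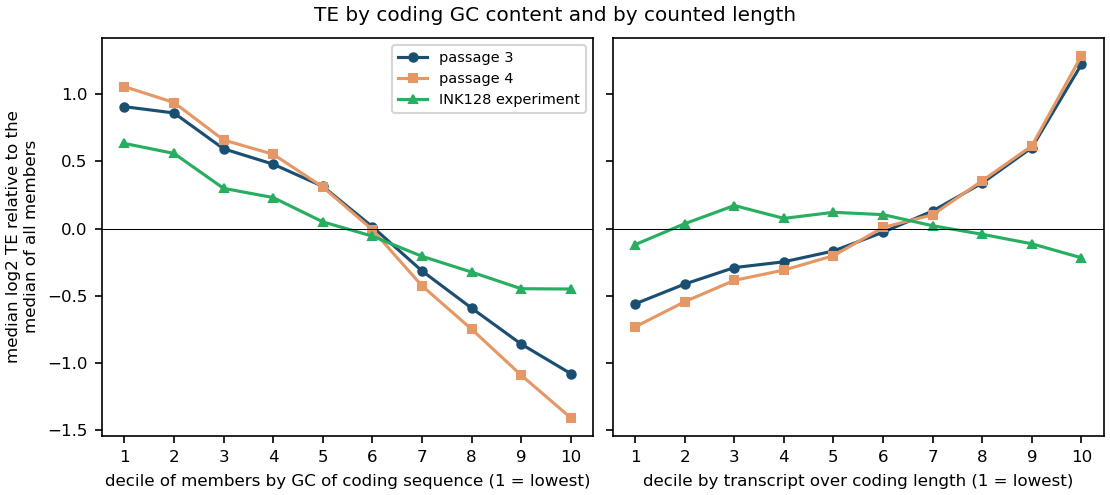
Median log2 TE relative to the median of all members (vertical) by deciles of coding GC (left) and of counted transcript over counted coding length (right), for passage 3, passage 4 and the DMSO arm of the INK128 experiment. With GC, the passage 3 median goes from 0.91 in the lowest decile to −1.08 in the highest. With length, the passage medians climb while the INK128 line stays between −0.22 and 0.17.

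The classes also differed in these features. Coding GC had a median of 60.2% in collagens, laminins and matrix proteins and 44.3% in the chaperonin and prefoldin class, against 51.7% over all members, but the histones had 60.3%. The counted length ratio had a median of 3.91 in RAB GTPases and 3.32 in E2 enzymes, against 1.86 over all members. With TE centred within deciles of coding GC, the collagen and laminin median became −2.59. With TE centred within deciles of the length ratio, the RAB median became 0.64 and the E2 median 0.59.

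Ribosomal proteins could be followed for few genes. Only 10 of 33 small subunit and 17 of 53 large subunit symbols were members, and less than 50% of the coding sequence was counted in 10 and 16 of them. The median was −1.12 and −0.75 for the small subunit (1 higher and 4 lower by the edgeR test) and −0.54 and −0.49 for the large subunit (3 higher and 5 lower), against 19.7% higher and 19.5% lower over all genes tested. RPS27L, a paralog of RPS27, had 308 and 318 RF RPKM and 30.1 mRNA RPKM (2.42 and 2.49). RPL19, by contrast, had 90.3 and 166 RF RPKM and 453 mRNA RPKM (−3.26 and −2.36). RPL22L1, a paralog of RPL22, had 170 and 166 RF RPKM and 10.1 mRNA RPKM (3.13 and 3.12).

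The same limit applied to other abundant genes. Of the coding sequence, 3.75% was counted for ACTB, 5.76% for ACTG1, 10.0% for GAPDH and 17.6% for TPT1. GAPDH had 33.9 and 233 RF RPKM and 1439 mRNA RPKM, a log2 TE of −6.34 and −3.54 (edgeR SE 1.14), and 0.24 in the INK128 experiment. ACTB had 1285 and 3436 RF RPKM and 1729 mRNA RPKM (−1.36 and 0.08). EEF2, an elongation factor with its whole coding sequence counted, had 1371 and 853 RF RPKM and 784 mRNA RPKM (−0.13 and −0.79). EEF1A1, FTH1, FTL and EIF4E had under 100 RF reads and were not members.

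Among mRNAs known for regulated translation, ATF4, the stress factor held back by upstream reading frames, had 16 and 13 RF reads and 1036 mRNA reads and was not a member. ATF5, which is regulated alike, had 3.74 and 5.54 RF RPKM and 20.7 mRNA RPKM (−3.40 and −2.82, edgeR adjusted p = 0.0177). PPP1R15A, the inducible phosphatase subunit that restarts initiation, was lower (−2.13 and −2.47), whereas its constitutive relative PPP1R15B lay at 0.10 in each passage. DDIT3 had −0.80 and −1.22 (edgeR adjusted p = 0.0654). CEBPG was higher, with 75.3 and 61.2 RF RPKM and 9.29 mRNA RPKM (2.08 and 1.81). The 17 members of this stress class had a median of −0.17 and −0.64, with 1 higher and 5 lower by the edgeR test, against 19.7% and 19.5% over all genes tested. UCHL5 in this class had 120 RF RPKM in passage 3 and 0.276 in passage 4, so its value rests on 1 passage.

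OAZ1, antizyme, whose mRNA needs a ribosomal frameshift, had 410 and 292 RF RPKM and 1227 mRNA RPKM (−2.51 and −2.98, edgeR adjusted p = 0.0177). ODC1, the enzyme that antizyme degrades, had 153 and 88.3 RF RPKM and 153 mRNA RPKM (−0.94 and −1.70, edgeR adjusted p = 0.0604). AMD1 lay at 0.26 and −0.21. The iron regulator IREB2 was higher (1.06 and 1.27, edgeR adjusted p = 0.0333), and the transferrin receptor TFRC lay at −0.87 and 0.10.

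Among genes that regulate growth and survival, CDK6, the G1 kinase, had 90.2 and 88.3 RF RPKM and 8.75 mRNA RPKM (2.43 and 2.42). CCND1, cyclin D1, had 1070 and 1111 RF RPKM and 171 mRNA RPKM (1.72 and 1.79), and MCL1, an antiapoptotic protein, had 392 and 292 RF RPKM and 67.9 mRNA RPKM (1.60 and 1.20). All 3 passed the edgeR test as higher (adjusted p = 0.0177, 0.0178 and 0.0289). In the INK128 experiment their log2 TE was −1.13, −0.23 and −0.03. MDM2, a ubiquitin ligase, had 43.8 and 50.6 RF RPKM and 5.99 mRNA RPKM (1.94 and 2.17), but lay at −0.997 in the INK128 experiment. The cyclin-dependent kinase inhibitor CDKN1A had 316 and 292 RF RPKM and 139 mRNA RPKM (0.25 and 0.15). JUN had 0.88 and 0.16, VIM 1.21 and 0.80, and ROCK1 0.66 and 0.81, and none of these passed the test. ARF6 had 652 and 224 RF RPKM against 58.6 mRNA RPKM (2.54 and 1.02, edgeR adjusted p = 0.108). Only 11.4% of its coding sequence was counted, with 1332 RF reads in passage 3 and 6718 mRNA reads. In the INK128 experiment ARF6 lay at 0.09.

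Of the initiation factors, the scaffold EIF4G1 had 194 and 178 RF RPKM and 161 mRNA RPKM (−0.67 and −0.77, edgeR adjusted p = 0.0490), and its relative EIF4G2 had −0.38 and −0.56. EIF4A1, the target of Silvestrol, had 133 and 249 RF RPKM and 47.7 mRNA RPKM (0.54 and 1.47, edgeR adjusted p = 0.159), with 12.8% of its coding sequence counted. The 50 initiation factors had a median of 0.32 and 0.16, with 13 higher and 5 lower by the edgeR test, against 19.7% higher and 19.5% lower over all genes tested. The ER chaperone HSPA5 lay at −0.36 and 0.82, and HSPA8 was lower at −2.97 and −1.83 with 6.32% of its coding sequence counted.

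Other control libraries of the same experiment gave nearly the same order of genes. TE from RF of untreated cells correlated with passage 3 with rho 0.986, and TE from the 1 h DMSO library with rho 0.991, over the same mRNA library. With the mRNA library of Silvestrol-treated cells as the denominator, rho was 0.894 over 9639 genes, and the selenoprotein median was −1.08 and the keratin and intermediate filament median 0.13 in place of −1.93 and −1.13. The DMSO arm of the INK128 experiment, with another RNA preparation, gave rho 0.438 with passage 3 over 9323 genes and 0.496 with passage 4 over 9283. Of the 20 classes with a high median, 10 were also at least 0.5 above the median there and 3 were below 0, and of the 16 classes with a low median, 2 were also at least 0.5 below and 9 were above 0. The 2 experiments differ in RNA preparation, read counting and unit, and these cannot be told apart.

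The lower limit of 100 reads lay in a region of below-average TE. The 103 members with 100 to 109 RF reads in passage 3 had a median log2 TE of −0.86, and 142 genes with 90 to 99 RF reads, just outside the limit, had −0.69.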

How the data were processed

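For the 3 control libraries, the authors removed linkers and mapped reads to hg19 and to canonical UCSC transcripts with Bowtie, allowing 2 mismatches and 16 hits. Submitters' processing notes also name CASAVA 1.8.1 and Bowtie2. The authors deposited read counts for each transcript (RF assigned to the P-site, mRNA to mid-read) and RPKM values, which leave out positions with non-unique reads. The INK128 files that the authors deposited hold FPKM without counts, so the read depth of that experiment cannot be taken from them. The deposited TE, log2 change and score columns were not used, and 0 columns of per-sample values were left out for want of a sample.

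Here, distinct lines were kept (25,758 of 38,897), with 1 entry per symbol, that with the most mRNA reads. Of 9662 symbols with at least 100 reads, 5 without an RF RPKM were dropped. Symbols turned into dates (13 members) were left as they are. The counted length of a gene was reads over RPKM, set to the annotated scale by its median ratio. TE was RF RPKM over mRNA RPKM with no pseudocount, as log2 minus the median of members. The RF and mRNA counts were compared in edgeR 4.0.16 under R 4.3.3 (TMM, counted length as offset, quasi-likelihood, Benjamini-Hochberg adjustment, 9614 genes). In simulated counts, 183 of 200 genes given a log2 change of 2 were called, with 9 false calls. Such counts have to assume a spread for mRNA, because the control mRNA library has no replicate. The 9 false calls therefore do not give the rate of false calls in the real data. Many genes share the smallest adjusted p, 0.0177. The passages are labelled as separate cultures of 1 line. The p-values rest on the spread between their 2 RF libraries, moderated with that of all genes (2.9 prior degrees of freedom). They do not measure the spread of mRNA libraries. DESeq2 1.42.0 was an alternative.

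Classes were matched by symbol or current RefSeq symbol, the latter added after values were seen. Transcript features came from GENCODE version 44 lifted to GRCh37, matched for 9589 members (99.3%). Named genes were the 10 highest and 10 lowest by the passage nearer the median (NM entries, 100 reads in all 3 libraries), 2 highest and 2 lowest members of the 6 highest and 6 lowest classes, and a fixed list of translation, stress and growth genes. Members and lists were chosen with earlier results of these data known, and the other genes named in the text were picked after their values were seen. Python 3.11.15, numpy 2.4.6 and pandas 2.3.3 were used. Some genes and 1 sequence are not reported here.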

Additional observations from a re-analysis of the deposited data

Results flagged for a closer look

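The ribosomal protein classes lay on opposite sides of the median in the 2 experiments, and this difference was not tested. The 10 small subunit members had a median log2 TE of −1.12 and −0.75 in passages 3 and 4 and 1.14 in the DMSO arm of the INK128 experiment, and the 17 large subunit members had −0.54, −0.49 and 1.12. Less than 50% of the coding sequence was counted in 26 of these 27 genes in the first experiment. The experiments also differ in RNA preparation, read counting and unit, and these cannot be told apart.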

How the results depend on the processing

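No paired analysis was possible because the mRNA group has 1 library and shares only 1 passage number with the RF group, so a fit with a passage block leaves no residual degrees of freedom. For the same reason edgeR was not run without an RF replicate. The edgeR counts stayed within 1.5 times under RLE scaling, no length offset, 4 other read filters and DESeq2. With 1 RF library left out in turn, the fold rule gave 2064 to 2113 higher and 2258 to 2273 lower genes. Only 332 genes had counted lengths within 10% of each other, which left 47 higher and 65 lower genes, and 3 classes above and 3 below by 0.5. Centring within deciles of coding GC, an alternative chosen after seeing the data like the centring on length ratio and the 50% minimum of counted sequence, gave 1119 higher genes and 13 classes above by 0.5. The INK128 experiment gave 7 classes below by 0.5, and put 9 of the 16 low classes above 0 and 3 of the 20 high classes below 0, among them integrins (0.062), cadherins and tetraspanins (0.24), RAB GTPases (−0.15) and cyclins with their kinases (−0.09). A ratio of read counts without counted length turned the polyadenylated histone variants to −0.72. The rho of TE with coding GC moved to −0.632 with passage 4 alone, and that with upstream ATGs to −0.062 with the longest 5′ UTR of each gene. Without passage 3, 20 classes were above and 15 below by 0.5. Passage 4 has the fewest reads and 1 mRNA library sets every denominator, which limits all single genes.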
